A study of Rattus norvegicus with 12 samples.

Results

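Hepatocytes isolated from the livers of 3 heart-beating rats were profiled on 1 Affymetrix rat array each. These 3 arrays, out of 12 in the study, are the samples labelled as heart-beating donors; the other 9 came from rats 4, 16 or 30 h after death and are used here only for the spread within their own groups. All animals were of the strain given as Fischer 334 in the labels. The liver was perfused with collagenase in 2 steps and the cells went to RNA extraction without culture, so the heart-beating animals share the perfusion and the isolation with every other group, and the profile is that of perfused and dissociated cells. No allele, agent, age or sex is given. Genes were ordered by the mean log2 signal of the 3 donors, each of 14217 genes being represented by its brightest probe set. The same signals chose the genes named below, so they are described without a test.

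Hepatocytes make up most of the mass of the liver. They secrete most proteins of blood plasma, turn ammonia into urea, make glucose during fasting, and oxidise drugs and steroids with cytochrome P450 enzymes before conjugation and export. Kupffer cells (resident macrophages), sinusoidal endothelial cells, stellate cells and bile duct cells surround them, and collagenase isolation enriches hepatocytes without removing all of these.

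The deposited log2 signals of the 3 donors followed nearly the same distribution, with medians over all probe sets of 5.87, 5.86 and 5.87 in donors 1, 2 and 3. The arrays had been equalised by quantiles, so these medians do not measure agreement between animals. Over the 14217 genes Pearson's r was 0.993 between donors 1 and 2, 0.997 between donors 1 and 3 and 0.994 between donors 2 and 3, as a description across genes, which are not replicates. Signals ran from a floor near 3.00 to a ceiling near 14.50. An array has no count depth, so the number of arrays limits the precision. Probe sets differ in how strongly they bind their transcript, so the order below is one of signal and not of molecules per cell.

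The 5 markers chosen for hepatocytes were all bright. Alb, which encodes albumin, read 14.50, 14.49 and 14.49 in donors 1 to 3, and was the highest value on all 3 arrays. Cyp2e1, an ethanol-oxidising P450, read 13.55, 13.57 and 13.44. Cps1, the first enzyme of the urea cycle, read 13.09, 13.18 and 13.04. All 3 lay within the brightest 1% of genes, which holds 143 of them. Apoa1, the main protein of high-density lipoprotein, read 12.53, 12.41 and 12.46 and ranked 85, and Asgr1, a subunit of the asialoglycoprotein receptor of the hepatocyte surface, read 10.50, 10.12 and 10.42 and ranked 670. Of 16 measured hepatocyte markers 12 were in the brightest 1% and all 16 in the brightest 10%, so the markers went with the cell type in the labels.

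The 30 genes with the highest signal were led by plasma proteins. After Alb came Apoc3, an inhibitor of lipoprotein lipase carried on triglyceride-rich particles, at 13.96, 13.93 and 14.00. Fabp1, the fatty acid binding protein of the liver, followed at 13.90, 13.85 and 13.96, and Ttr, the carrier of thyroxine and of retinol binding protein, at 13.84, 13.91 and 13.92. The 5 lists of plasma proteins (carriers, protease inhibitors, apolipoproteins, clotting factors and complement) supplied 18 of the 30 and 39 of the 100 brightest genes. Carriers among the 30 were Alb, Ttr, Gc (vitamin D binding protein, mean 13.78), Rbp4 (retinol, 13.62), Fetub (13.58), Hp (haemoglobin scavenging, 13.51), Ambp (13.48), Itih3 (13.40), Ahsg (fetuin A, 13.36) and Hpx (heme, 13.32). Apolipoproteins among them were Apoc3, Apoe (13.67), Apoa2 (13.63) and Apoh (13.33), and the protease inhibitors were Serpina1, which restrains neutrophil elastase, at 13.77, and Serpina3c at 13.57. C3, the central complement protein, had a mean of 13.61, and Fgg, the gamma chain of fibrinogen, one of 13.49.

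Enzymes made up most of the others of the 30. The P450 genes were Cyp2c7 (13.88, 13.76 and 13.83 in donors 1 to 3), Cyp2e1, Cyp2c12 (13.47, 13.36 and 13.43) and Cyp2c6v1 (13.34, 13.24 and 13.32). The Cyp2c genes are close relatives, as are the Serpina3 genes, and a probe set can bind transcripts of more than 1 of them, so the share of each is uncertain. Mgst1, a glutathione transferase of membranes, had a mean of 13.68 and Adh1c, an alcohol dehydrogenase, one of 13.51. The lists of hepatocyte function held none of the 5 others. These were COX1 (13.87) and COX2 (13.74), catalytic subunits of cytochrome c oxidase encoded in the mitochondrial genome, Gpx1 (13.60), which reduces hydrogen peroxide with glutathione, Rup2 (13.59), and Serpina3l (13.41). At the edge of the 30, Cyp2c6v1 had a mean of 13.30 and the next gene, Fgb, one of 13.28.

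The 30 brightest genes differed little between donors. The largest SD among them was 0.14, for Serpina3l, which read 13.45, 13.25 and 13.52. Donor 2 was the lowest for that gene, and also for Cyp2c7, Cyp2c12 and Cyp2c6v1. Alb had an SD of 0.0031, the only gene with a mean of at least 14. The median SD of the 48 genes with a mean of at least 13 was 0.0439, against 0.0866 for the 847 genes with a mean of at least 9 and under 10. Equalising the arrays by quantiles gives the top ranks nearly the same values on every array. Alb was the highest value on all 3 arrays, so its small SD cannot be told apart from the effect of this step. The part of this step in the small SDs of the other top genes was not tested. Those SDs are therefore not read as agreement between animals. Whether signals near the ceiling are compressed was not tested.

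**Figure D1:**
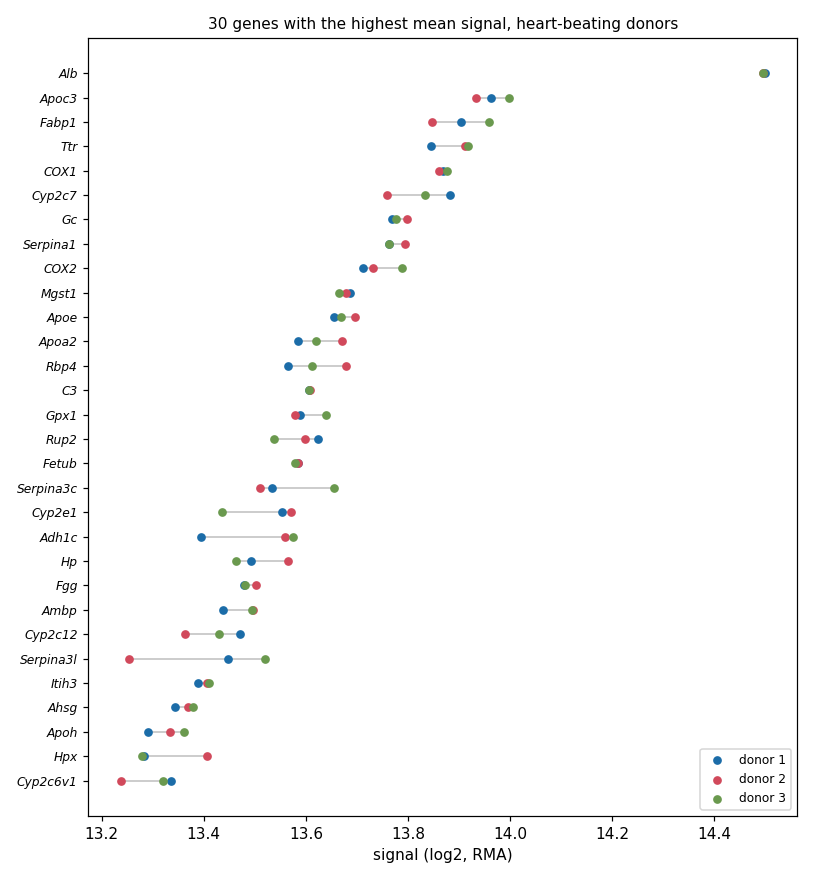
Log2 signal (x axis, which starts above 13) of the 30 genes with the highest mean, 1 row per gene and 1 point per heart-beating donor, with a line from the lowest to the highest donor. Alb stands apart at 14.50, and the other genes fall from 13.96 to 13.30 with donors that lie close together.

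Promoters of the genes with the highest signal held the TATA box and a motif of the liver factor HNF1 in a larger share than promoters in general. RefSeq start sites (assembly GRCr8) were available for 11700 of the 14217 genes and for 82 of the 100 brightest. Where a gene had several start sites the first listed was used, and each window held 250 bases before the start and 50 after. TATAAA, the TATA box, on either strand stood in 21 of 82 windows (25.6%, Wilson 95% interval 17.4% to 36.0%) against 8.45% of all 11700. GTTAAT, the half-site of the liver factor HNF1, on either strand stood in 16 of 82 (19.5%, 12.4% to 29.4%) against 4.85%. GGGCGG, the GC box of broadly used promoters, was rarer, in 22 of 82 (26.8%, 18.4% to 37.3%) against 57.5%. The windows also differed in base composition, with a median GC content of 50.8% against 60.0% and 4.50 against 19.0 CG dinucleotides, and the part of base composition in these shares was not tested. A match of letters is not a bound site. The intervals cover counting error only.

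Windows from 200 bases before the start to 10 bases after it are shown for 3 of the 6 brightest genes, chosen because they hold these motifs, with TATAAA and GTTAAT in capitals (5′ to 3′ along the gene, RefSeq GRCr8). Counted from the start site, GTTAAT began at -82 in Alb (chr14:17906970-17907179, minus strand) and at -117 in Fabp1 (chr4:104749140-104749349, plus strand), and TATAAA at -40 in Fabp1 and at -172 and -31 in Cyp2c7 (chr1:247966194-247966403, plus strand).
Alb: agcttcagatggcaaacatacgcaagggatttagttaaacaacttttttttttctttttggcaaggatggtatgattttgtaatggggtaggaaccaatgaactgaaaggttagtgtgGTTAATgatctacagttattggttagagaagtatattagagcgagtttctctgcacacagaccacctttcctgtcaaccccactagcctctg
Fabp1: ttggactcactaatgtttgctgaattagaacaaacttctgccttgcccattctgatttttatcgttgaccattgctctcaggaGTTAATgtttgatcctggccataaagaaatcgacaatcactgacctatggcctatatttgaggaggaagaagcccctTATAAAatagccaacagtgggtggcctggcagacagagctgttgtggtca
Cyp2c7: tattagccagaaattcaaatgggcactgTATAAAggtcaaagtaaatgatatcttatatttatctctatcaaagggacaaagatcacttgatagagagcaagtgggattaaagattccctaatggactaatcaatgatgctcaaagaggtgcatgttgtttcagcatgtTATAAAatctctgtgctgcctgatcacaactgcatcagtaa

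By function, lists of secreted proteins stood high in the order of signal. The carriers had a median percentile of signal of 99.7 among all genes, with 23 of 27 measured members in the brightest 10% of genes. Apolipoproteins had a median percentile of 99.1 (17 of 18), protease inhibitors 98.8 (11 of 14), clotting factors 98.4 (15 of 16) and complement 97.8 (15 of 17). Some members were not above background. A2m, an acute phase protein of the injured rat, read 5.18, 5.26 and 5.30, and Lcn2, which rises in inflammation, read 5.55, 5.64 and 5.64. Both lay below the level of 6.59 used for background, the 95th percentile of 77 genes of other organs described further on. Acute phase genes as a list had 17 of 24 members in the brightest 10%, led by C3, Hp, Fgg and Itih3, of which the liver makes a basal supply. Hamp, the iron hormone hepcidin, read 12.33, 12.77 and 12.14.

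Lists of nitrogen and energy metabolism and of ribosomal proteins were also high. All 11 measured urea cycle and ammonia genes were in the brightest 10%, at a median percentile of 98.0, with Cps1 and Ass1 (12.95, 13.07 and 13.01), which joins citrulline to aspartate, on top, then Arg1 (12.26, 12.68 and 12.22), which releases urea. Glud1, glutamate dehydrogenase, had a mean of 11.76. Amino acid breakdown had 35 of 42 there, led by Hpd (mean 13.08, tyrosine), Cth (12.63, cysteine), Cdo1 (12.60, cysteine) and Tdo2 (12.54, tryptophan). Subunits of oxidative phosphorylation had 50 of 53 in the brightest 10%, led by Atp5mc3 (12.53) and Cox7b (12.37), and cytosolic ribosomal proteins 38 of 42 at a median percentile of 98.4, led by Rps29 (13.16) and Rpl26 (12.45). Fatty acid oxidation had 20 of 27, with Fabp1 and Acsl1 (12.45), which activates fatty acids, on top, and gluconeogenesis and glycogen 12 of 17, with Pck1 (12.23) and Fbp1 (12.15), which catalyse committed steps to glucose.

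Drug and lipid metabolism was more mixed. P450 genes had 14 of 44 members in the brightest 1% and 25 in the brightest 10%. Of the 44, 8 were not above the background level, against 6789 of all 14217 genes. The list of conjugating enzymes, which also held the alcohol dehydrogenase Adh1c, had 25 of 45 in the brightest 10%. It was led by Mgst1, Adh1c, Gsta1 (12.92) and Sult2a6 (12.41). Bile acid genes had 16 of 26, led by Scp2, a sterol carrier (12.98, 13.04 and 12.98), and Slc10a1 (12.38), the sodium-dependent bile acid importer. Cholesterol synthesis had 11 of 18 in the brightest 10% and lipogenesis 10 of 23, with no member of either in the brightest 1%. Transcription factors of hepatocytes were lower, with 8 of 26 in the brightest 10% and 0 in the brightest 1%. Creb3l3, a membrane-bound factor of the fasting response, led them at 10.60, before Atf5 (10.58), Hnf4a (10.34), a master regulator of hepatocyte genes, and Xbp1 (10.26). Other probe sets of Hnf4a had means of 7.41 and 6.91, so its place depends on the probe set.

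Most markers of hepatocytes from either end of the lobule were bright, the pericentral ones less uniformly. All 15 measured periportal genes were above background and 13 in the brightest 10%, among them Alb, Pigr (13.17), which carries immunoglobulin A into bile, Cps1 and Ass1. Of 15 pericentral genes 11 were above background and 9 in the brightest 10%, led by Cyp2e1, Cyp1a2 (12.22), Rgn (12.14) and Oat (11.92). Of all genes, 52.2% were above background. Glul, the glutamine synthetase of the cells next to the central vein, read 10.56, 10.35 and 10.58. The pericentral genes Ahr (5.91), Slc1a2 (5.39), Lgr5 (4.40) and Slc22a3 (4.35) were not above background. Axin2 (6.78) and Tbx3 (6.73) were just above it.

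Signals of other cell types were set against 77 measured genes of other organs (crystallins, protamines and the like), which had a median signal of 5.05, a 95th percentile of 6.59 and a highest value of 6.92. Of all genes, 52.2% lay above 6.59. The level was taken as a guide to background and cannot separate a dim transcript from cross-hybridization. Over 12 lists of other cell types, 74 of 194 measured markers lay above it, a smaller share than that of all genes. No marker of any of these lists was among the 100 brightest genes. In bulk RNA, fewer cells of a type and less RNA per cell cannot be told apart.

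Macrophage transcripts were the clearest of these. Of 15 markers of Kupffer cells and macrophages 14 lay above background, against 52.2% of all genes. Cd5l, a secreted scavenger protein of tissue macrophages, read 10.19, 10.30 and 10.21, and Clec4f, a lectin of Kupffer cells, 9.84, 9.93 and 9.77. C1qa, a chain of complement C1q made by macrophages, read 9.65, 9.61 and 9.68. The values of each gene lay within 0.2 of each other in the 3 donors. Lyz2, lysozyme, had a mean of 9.53. Adgre1, the F4/80 antigen, was the exception below the level, at 6.22, 6.11 and 6.04. The mean over the list was 8.20, 8.23 and 8.20 in donors 1 to 3. Of 15 genes of antigen-presenting cells 9 were above the level, a share not far from the 52.2% of all genes, so the count alone says little. The brightest were RT1-Da (9.84), Cd74 (9.42), the invariant chain of MHC class II, RT1-Ba (8.90) and RT1-Db1 (8.87). The dendritic cell markers Clec9a, Itgax and Flt3 were not above the level.

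Markers of sinusoidal endothelial and stellate cells were divided by the background level. Of 18 endothelial markers 12 lay above the level, against 52.2% of all genes, so the count alone says little. The brightest were Kdr, a receptor of VEGF (9.49, 9.40 and 9.58), Lyve1, a hyaluronan receptor (mean 9.13), Fcgr2b (8.86) and Ptprb (8.84). Stab2, a scavenger receptor of the sinusoid, read 8.47, 8.10 and 8.49, while Vwf, a marker of larger vessels, had a mean of 4.92 and lay within the range of genes of other organs. Of 23 stellate cell and fibroblast markers 12 lay above the level, a share close to the 52.2% of all genes, so the count itself is no sign of these cells. Col3a1, a fibrillar collagen, read 10.29, 9.51 and 10.28, and Lrat, which stores retinol as an ester in stellate cells, read 7.30, 6.10 and 7.30. Donor 2 was the lowest for both, and the lowest for 16 of the 23, against 39.0% of all genes. Colec11 (9.58), Ecm1 (9.47) and Bgn (9.08) were also bright, and Reln, a stellate cell glycoprotein, had a mean of 8.66. Des, Hgf and Ngfr, defining genes of stellate cells, were below the level at means of 5.63, 4.98 and 4.92.

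Bile duct, lymphoid and granulocyte markers stayed mostly at background, with smaller shares above the level than the 52.2% of all genes. Of 13 bile duct markers 4 lay above the level (Anxa4, Slc4a2, Epcam and Ggt1, at 7.98, 7.41, 6.98 and 6.82), and Krt19 and Krt7, the keratins of bile ducts, had means of 5.06 and 4.25. For T and NK cells it was 5 of 23, led by Ccl5 (8.10), a chemokine, and Nkg7 (7.26), with Cd3e at 6.74 and Cd3d and Cd3g below the level. For B and plasma cells it was 3 of 12, Sdc1, which hepatocytes also express, Cd22 and Ms4a1, with Cd79b at 4.72. Neutrophil and mast cell markers had 2 of 18 above the level, Cpa3 (7.24) and Tpsb2 (6.66), and S100a8, among the strongest transcripts of neutrophils, read 3.65, 3.66 and 3.65. Smooth muscle, mesothelial and portal cell markers had 2 of 17, Lrrn4 (9.09) and Mgp (8.49), with Myh11 and Actg2 below the level. Platelet markers had 3 of 7, a share not far from that of all genes, so this count says little.

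Red cell and pancreatic genes gave a split picture. Of 13 erythroid markers 5 lay above the level, against 52.2% of all genes. Hbb, beta globin, read 11.50, 11.42 and 11.78 and Hba-a3, an alpha globin, 10.41, 10.35 and 10.62, each highest in donor 3. Alas2, the first enzyme of heme synthesis in erythroid cells, had a mean of 6.46, and the erythroid factors Klf1 and Gata1 had means of 5.21 and 4.94, all below the level. The globin genes are near-identical copies and their probe sets may bind several. Of 20 pancreatic enzymes 3 lay above it. Cpa1, a carboxypeptidase of pancreatic juice, read 10.33, 9.99 and 8.60, with donor 3 low, while Cela1 read 7.82, 7.68 and 8.32, with donor 3 high. The defining enzymes Prss1, Pnlip and Amy2a3 had means of 4.83, 5.48 and 4.04.

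**Figure D2:**
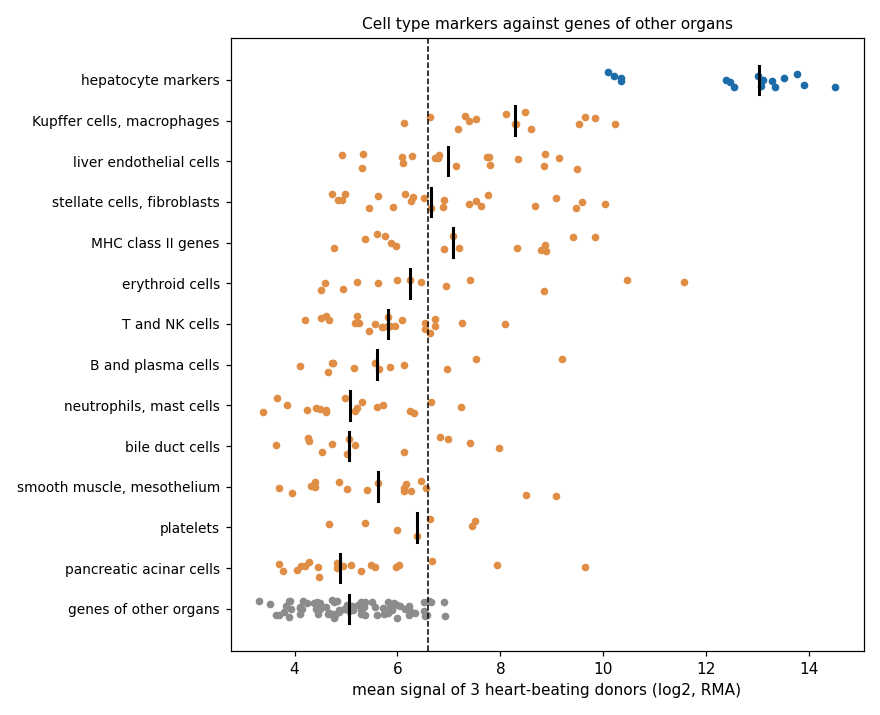
Mean log2 signal over the 3 heart-beating donors (x axis) of each measured marker, 1 row per list, with a thick bar at the list's median and a dashed line at 6.59, the 95th percentile of genes of other organs. Hepatocyte markers lie between 10.09 and 14.50, macrophage markers mostly above the line, and pancreatic and granulocyte markers mostly below it.

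The spread between donors was narrow for nearly all genes. The median SD over the 3 donors was 0.0781 log2 units and the 99th percentile 0.464, and 113 genes (0.795%) had an SD of at least 0.5 and 19 an SD of at least 1. These counts rest on single animals. Without donor 2 the number of genes with an SD of at least 0.5 was 21, without donor 3 it was 192 and without donor 1 it was 138. The 5 genes with the smallest SD among those with a mean of at least 8 and under 13 were Rpl7a (12.30 in all 3 donors), Abi1 (8.58), Fkbp2 (10.70), Fcho2 (8.67) and Ppfibp1 (8.16), with SDs from 0.0025 to 0.0049. Ribosomal proteins as a list had a median SD of 0.03.

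Donor 2 set most of the wide genes. Among the 100 genes with the largest SD, donor 2 stood farther from the middle value than the opposite donor in 86, above the others in 69 and below them in 17. Over all genes it did so in 37.0%. A signal at least 1 log2 unit above both other donors was found for 46 genes in donor 2, 3 in donor 1 and 0 in donor 3. A signal that far below both others was found for 5 genes in donor 2, 2 in donor 1 and 1 in donor 3.

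**Figure D3:**
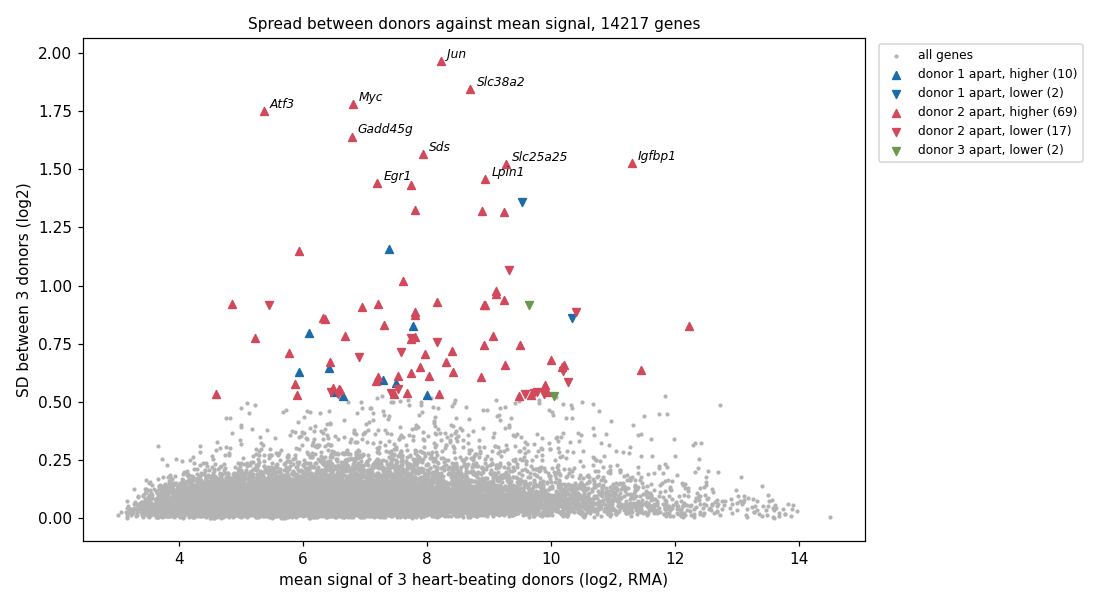
SD between the 3 heart-beating donors (y axis, log2) against mean log2 signal (x axis) of 14217 genes in grey, with the 100 largest SDs coloured by the donor that stands apart and pointing up or down with its side. Most of the coloured points are donor 2 above the others, and wide genes lie between means of 4 and 13.

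Several transcription factors of the immediate early response were among the 30 largest SDs. Jun, a subunit of AP-1, read 6.70, 10.44 and 7.52 and had the largest SD of all genes, 1.97, with donor 2 above the mean of the others by 10.1-fold. Its other 2 probe sets also had donor 2 highest, at 6.85, 8.89 and 6.96 and at 5.70, 7.91 and 5.98. Myc, a driver of growth genes, read 5.63, 8.84 and 5.91. Atf3, a stress-induced repressor, read 4.28, 7.38 and 4.42, at background in donors 1 and 3. Egr1, a zinc finger factor induced by growth signals, read 6.28, 8.86 and 6.45, and Nr4a1, an orphan nuclear receptor, 5.38, 7.25 and 5.17. Only donor 2 exceeded the background level for Myc, Atf3, Egr1 and Nr4a1. Tgif1, Irf2bp2 and Bhlhe40, regulators of transcription, of which the first 2 stand in no list, had SDs of 0.93, 0.94 and 0.91 with donor 2 highest.

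Negative regulators and stress genes were also among the 30 largest SDs. Only Gadd45g and Dusp1 of those below belong to the list of immediate early genes. Gadd45g, a growth arrest protein, read 5.99, 8.67 and 5.70, above background in donor 2 alone, and Dusp1, a phosphatase that turns off MAP kinases, 8.90, 10.17 and 8.28 (2.99-fold). Rgs16, which shortens G protein signals, read 8.14, 10.69 and 8.87, and Ifrd1 6.76, 8.26 and 6.59. Nupr1, a stress-response protein of chromatin, read 8.08, 9.90 and 8.84. In each of these donor 2 was the highest.

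Most of the list of immediate early genes was also highest in donor 2. The list was chosen with earlier results of these data known, so its counts are a description and no support. Of 48 measured members 41 had their highest signal in donor 2, against 31.4% of all genes. Of the 100 largest SDs among 14217 genes, 14 were members, all with donor 2 highest. Donor 2 stood apart above the others in 69 of those 100. The list mean was 6.69, 7.42 and 6.69 in donors 1 to 3. Not every member took part. Fos, the partner of Jun in AP-1, read 4.33, 4.97 and 4.53 by its brightest probe set, below the background level in all 3 donors, as did Fosb and Egr2. Dusp6, a phosphatase of ERK, was lowest in donor 2, at 9.75, 8.89 and 9.42. In all, 24 of the 48 had means that were not above the background level, against 6789 of all 14217 genes. The members with the highest means were Zfp36l1 (11.44, 12.43 and 11.63), an mRNA decay factor, Btg1 (mean 11.61), Jund (11.31, 11.75 and 11.28) and Cebpb (9.78, 10.93 and 9.83), a liver factor of the acute phase and of gluconeogenesis.

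Metabolic genes and transporters were also among the 30, grouped here by their known roles and not by a list. Igfbp1, a secreted inhibitor of insulin-like growth factors that insulin represses, read 10.06, 13.01 and 10.85 (5.88-fold). Irs2, the insulin receptor substrate of the fasted liver, read 6.81, 9.39 and 7.02 (5.54-fold), and Lpin1, a phosphatidate phosphatase and coactivator, 8.04, 10.62 and 8.16 (5.75-fold). A second probe set of Lpin1 read 7.89, 9.83 and 7.73. Sds, serine dehydratase, which feeds serine into glucose synthesis, read 7.14, 9.74 and 6.91 (6.53-fold). Slc38a2, an amino acid importer, read 7.50, 10.82 and 7.78 (9.11-fold), and Slc25a25, a mitochondrial carrier of ATP and magnesium, 8.44, 11.03 and 8.34 (6.23-fold). Got1, the cytosolic aspartate transaminase, read 8.53, 10.24 and 8.56. Donor 2 lay above the other donors in each, and donors 1 and 3 lay close together in all but Igfbp1.

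Further metabolic genes lay outside the 30. Pck1, the rate-limiting enzyme of gluconeogenesis, read 11.50, 13.12 and 12.05 with an SD of 0.82. Tat, a tyrosine transaminase induced by glucagon and glucocorticoids, read 9.76, 10.96 and 9.91. Cyp7a1, the rate-limiting enzyme of bile acid synthesis, read 9.38, 11.06 and 10.55, with donor 1 the one apart. Not all genes of glucose synthesis were wide, since Fbp1 read 12.08, 12.17 and 12.20. Among the 17 genes of gluconeogenesis and glycogen donor 2 was highest in 8, against 31.4% of all genes, and Ppp1r3b, which targets a phosphatase to glycogen, was lowest in donor 2 at 10.22, 9.15 and 9.78.

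Other members of the 30 were more varied. Noct, a rhythmic phosphatase of NADP(H), read 7.01, 9.33 and 7.06, Coq10b, a coenzyme Q binding protein, 8.12, 10.42 and 8.15, and Retreg1, a receptor for turnover of the endoplasmic reticulum, 8.55, 9.96 and 8.24. Scd2, a fatty acid desaturase, read 7.48, 8.68 and 6.65, but its second brightest probe set read 6.54, 6.80 and 6.83 and did not share that order. Csad, the enzyme that commits cysteine sulfinate to taurine, read 7.98, 10.56 and 10.04, with donor 1 low. Serpina7, thyroxine binding globulin, read 8.60, 6.29 and 7.28, a different value in every donor with donor 2 the lowest, and Spink1l, a trypsin inhibitor, read 9.89, 8.09 and 9.99, with donor 2 low. Edil3 (4.70, 5.84 and 4.02) and Nfe2 (5.64, 4.46 and 6.27) lay below the background level in all 3 donors, so their spread is among dim signals. Cpa1, described above, was the 1 gene of the 30 in which donor 3 stood apart. The last of the 30 was Bhlhe40, with an SD of 0.91, and the next gene, Pptc7, had an SD of 0.89.

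**Figure D4:**
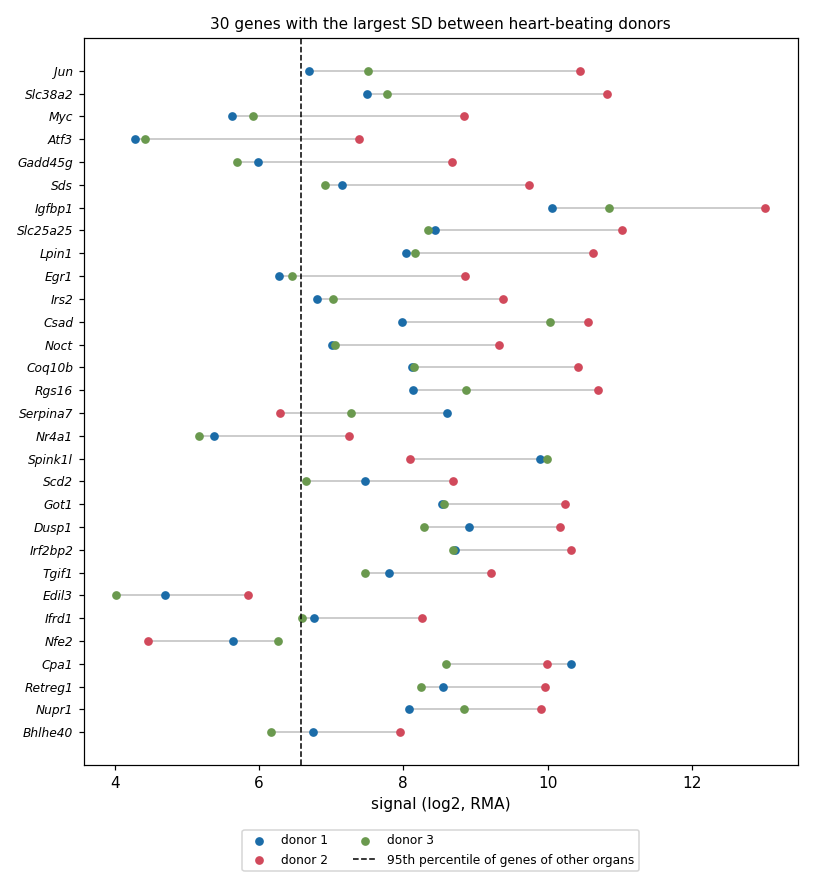
Log2 signal (x axis) of the 30 genes with the largest SD, from Jun at the top (SD 1.97) to Bhlhe40 (0.91), with 1 point per heart-beating donor, a line from the lowest to the highest, and a dashed line at the background level of 6.59. Donor 2 is the rightmost point in most rows, and Serpina7, Spink1l and Nfe2 have it on the left.

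Other probe sets gave a second reading for some of these genes. Of the 100 genes with the largest SD, 27 had further probe sets, 42 in all, of which 12 lay above the background level. In 11 of those 12 the same donor stood apart on the same side, and in 9 the SD was at least 0.5. The exception was the second probe set of Scd2.

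Control probe sets gave no comparable gap for donor 2. The 3′ probe set of Gapdh read 11.82, 11.86 and 11.84, and its excess over the 5′ probe set, which grows as RNA is degraded, was 0.45, 0.41 and 0.31. For Actb the 3′ probe set read 11.16, 10.92 and 11.10 and the excess was 1.86, 1.90 and 1.80. Donor 2 thus lay between the others for the Gapdh excess and was highest, by 0.04 over donor 1, for that of Actb. The mean of 9 hybridization controls was 10.47, 10.36 and 10.26. The part of RNA quality in the values of donor 2 was not tested.

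Promoters of the genes with donor 2 apart and above the others were searched for the motif bound by factors of the cAMP and stress signals. Most did not hold it, and windows are shown for some that hold it or its half-site. TGACGTCA, the cAMP response element, stood in 6 of the 56 available windows of the 69 genes with donor 2 above the others (10.7%, Wilson 95% interval 5.0% to 21.5%), against 2.85% of all windows. Its half-site TGACG on either strand stood in 26 of 56 (46.4%, 34.0% to 59.3%) against 29.2%, and the full element holds the half-site on both strands. Within the 100 bases before the start the half-site stood in 13 of 56 (23.2%, 14.1% to 35.8%) against 14.9%, and the full element in 3 of 56 (5.36%, 1.84% to 14.6%) against 1.78%, so the first interval holds the share of all windows and the second begins just above it. This shorter window was chosen after seeing the data. The CArG box of serum response factor stood in 3 of 56 (5.36%, 1.84% to 14.6%) against 1.35%. Windows of these genes had a median GC content of 64.5%, against 60.0% over all windows, and 23.5 against 19.0 CG dinucleotides. The GC box GGGCGG stood in 39 of 56 (69.6%, 56.7% to 80.1%) against 57.5%. The part of base composition in these shares was not tested. Jun, Myc, Atf3, Sds and Irs2 had no entry in the table used.

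In the windows below (200 bases before the start to 10 after it, 5′ to 3′ along the gene, RefSeq GRCr8) the cAMP response element, its half-site and the CArG box are in capitals. Egr1 (chr18:26736878-26737087, plus strand) and Dusp1 (chr10:17184653-17184862, plus strand) belong to the immediate early list, and Slc25a25 (chr3:36116572-36116781, minus strand) and Pck1 (chr3:182348372-182348581, plus strand) were added after their values were seen. The full element began at -124 in Dusp1 and at -158 in Slc25a25, the half-site alone at -172 in Dusp1, at -90 in Pck1 and at -135 and -66 in Egr1, and CArG boxes at -105 and -83 in Egr1. The capitals mark letters, not sites shown to be bound in these cells.
Egr1: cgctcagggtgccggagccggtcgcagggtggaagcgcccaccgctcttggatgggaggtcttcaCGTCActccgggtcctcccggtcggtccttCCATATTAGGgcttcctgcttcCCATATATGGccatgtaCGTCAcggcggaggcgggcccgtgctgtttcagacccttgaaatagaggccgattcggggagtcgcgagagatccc
Dusp1: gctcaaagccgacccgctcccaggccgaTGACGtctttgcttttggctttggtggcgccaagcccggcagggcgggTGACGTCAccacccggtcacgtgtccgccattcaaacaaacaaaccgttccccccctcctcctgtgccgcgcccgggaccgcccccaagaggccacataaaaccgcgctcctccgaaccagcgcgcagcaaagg
Slc25a25: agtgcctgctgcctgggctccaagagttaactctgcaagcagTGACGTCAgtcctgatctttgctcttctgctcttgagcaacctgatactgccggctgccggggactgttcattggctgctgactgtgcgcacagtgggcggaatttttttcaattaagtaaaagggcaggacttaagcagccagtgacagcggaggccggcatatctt
Pck1: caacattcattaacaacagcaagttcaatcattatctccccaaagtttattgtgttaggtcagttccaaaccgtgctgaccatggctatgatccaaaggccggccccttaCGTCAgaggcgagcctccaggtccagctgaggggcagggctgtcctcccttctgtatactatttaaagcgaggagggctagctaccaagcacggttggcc

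Whole pathways differed by less between donors, and not always through donor 2. Of 18 cholesterol synthesis genes 17 were highest in donor 3, against 31.4% of all genes, and 14 lowest in donor 2. Idi1, which isomerises isopentenyl diphosphate, read 10.22, 9.55 and 10.82, and Fdps, which makes farnesyl diphosphate, 12.03, 11.61 and 12.29. The exception was Insig1, which retains the sterol sensor in the endoplasmic reticulum, at 10.91, 12.16 and 11.32 and highest in donor 2. The list's mean was 9.75, 9.59 and 9.99 in donors 1 to 3. Abcg5, a subunit of the sterol exporter, read 7.73, 6.81 and 8.22 and had the same order of donors.

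Subunits of oxidative phosphorylation were lowest in donor 2 in 44 of 53 and highest in donor 3 in 35, but the size was small, with list means of 10.89, 10.83 and 10.93. Over all genes donor 2 was lowest in 39.0% and donor 3 highest in 31.4%. In lipogenesis donor 3 was highest in 11 of 23 genes and donor 2 in 7, against 31.4% of all genes for either. Lpin1 and Scd2 had the largest SDs of that list, and Scd, the main stearoyl-CoA desaturase of liver, read 11.25, 12.13 and 11.84. Periportal genes had a list mean of 11.05, 11.43 and 11.04, with donor 2 highest in 9 of 15, against 31.4% of all genes. Sds and Pck1 had its largest SDs, and the median deviation of donor 2 over the list was 0.07. Pericentral genes had list means of 8.95, 9.10 and 9.09. Transcription factors of hepatocytes were highest in donor 1 in 16 of 26, against 37.3% of all genes. Cebpb, highest in donor 2, had the largest SD of that list, 0.65.

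**Figure D5:**
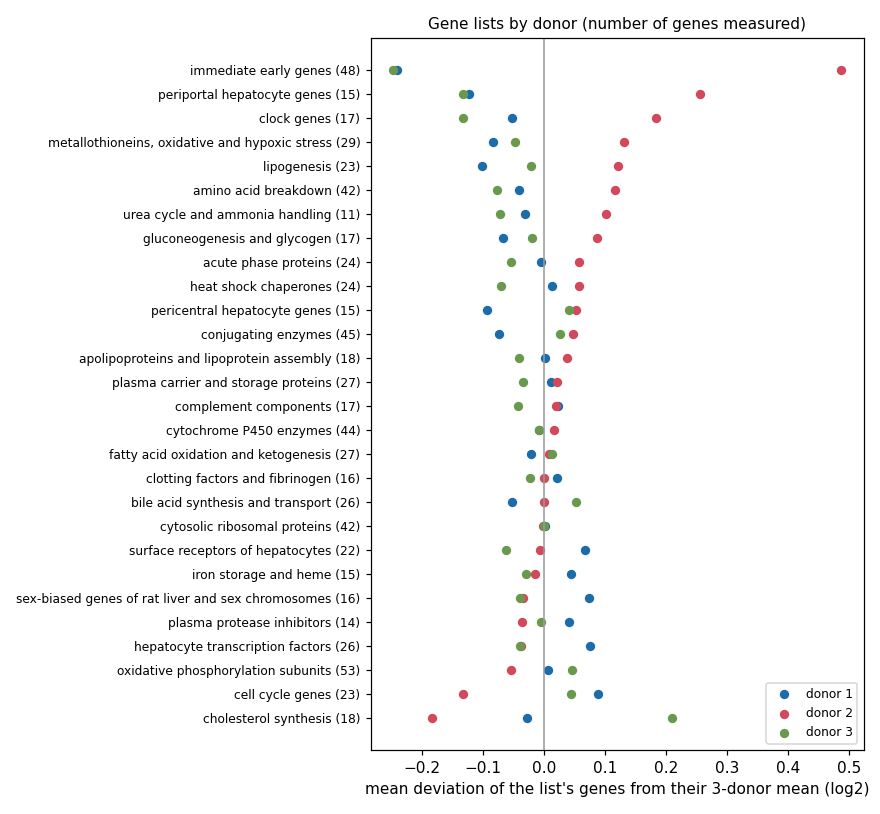
Mean deviation of each list's genes from their own mean over the 3 donors (x axis, log2), 1 row per list with the number of measured genes in brackets and 1 point per heart-beating donor. Donor 2 lies farthest right for the immediate early genes and farthest left for cholesterol synthesis, where donor 3 is on the right.

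The same genes can be followed within the groups of dead donors. They were chosen for their spread among heart-beating donors, which favours that group, so nothing is read from the difference. For the 30 genes the median SD was 1.24 with the heart beating. It was 0.459, 0.301 and 0.350 at 4, 16 and 30 h after death. With the heart beating and at 4, 16 and 30 h, all 30, 14, 8 and 10 of them had an SD of at least 0.5. Of all 14217 genes, 113, 67, 28 and 84 did so in the same order. Of the 30 widest genes within each later group, 8 belonged to these 30 at each of the 3 times. Jun had SDs of 1.21, 0.58 and 0.56 at 4, 16 and 30 h, Igfbp1 0.28, 0.03 and 1.76, and Myc 0.21, 0.22 and 0.20. Over all genes the median SD within groups was 0.0849, 0.0854 and 0.124 in the same order.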

How the data were processed

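The deposited table holds log2 signals of 31099 probe sets on 12 arrays, produced by the authors with RMA, which corrects the background, equalises the arrays by quantiles and summarises each probe set, and limma, per the submitters' processing notes, without versions. Control probe sets (57) stayed out of the gene tables. Of the others, 20826 carried 1 gene symbol in the platform annotation, 436 several and 9780 none, and only the first were named; 20758 matched a gene ID in RefSeq GRCr8, which gave current symbols and promoters. Each gene took its brightest probe set over the 3 heart-beating arrays. Mean, SD (n = 3 animals) and rank were computed in Python 3.11.15 with pandas. No test was run, since the groups were not compared and the values chose the genes. The 42 lists held 1183 entries, of which 1003 were measured. Genes were named by these rules: the 30 highest means, the 30 largest SDs, the 5 smallest SDs, and per list up to 4 members with the highest mean and 2 with the largest SD, with defining markers; A2m, Lcn2, Glul, Fos, Fosb, Egr2 and Dusp6 were named after their values were seen. The donor apart is the one farther from the middle value. The members and lists were chosen with earlier results of these data known. Alternatives were other probe set rules, normalizations, background levels and leaving out donors. The ranking was tested on simulated data.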

Additional observations from a re-analysis of the deposited data

How the results depend on the processing

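No paired analysis was possible because no result comes from a test and only 1 group was described. Between 86 and 100 of the 100 brightest genes were shared with those under 4 other rules and with each donor left out, and between 70 and 73 of the 100 lay in a list of hepatocyte function. The plasma protein lists supplied between 31 and 39 of the 100, the fewest with the mean over all probe sets of a gene. Of the markers of other cell types, 72 to 98 of 194 exceeded background, most with the lower level of 6.05. With 1 donor left out, between 30 and 86 of the 100 genes with the largest SD remained, the fewest without donor 2, and between 21 and 192 genes had an SD of at least 0.5. Under 6 other settings donor 2 stood apart in 83 to 88 of the 100. TATAAA stood in 17.1% of promoters of the 100 brightest genes within the 100 bases before the start, against 4.44% of all promoters. In that window, chosen after seeing the data for these genes, TGACG fell from 46.4% to 23.2% of the promoters of genes higher in donor 2. With other background levels the counts of smooth muscle, T and NK cell and neutrophil markers rose to at most 8, 8 and 4, from 2, 5 and 2, and without donor 2 the platelet markers fell from 3 to 2. Counts of the donor that was highest or lowest within a list were not recomputed. Protein features were planned and not run. With 3 arrays, the SD of a gene rests on few animals.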

Other observations

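Genes known to differ between female and male rat livers, and genes of the sex chromosomes, gave the following values. Cyp2c12 (13.47, 13.36 and 13.43 in donors 1 to 3), a steroid hydroxylase, A1bg (13.19, 12.22 and 12.77) and Prlr (11.87, 11.01 and 11.60), the prolactin receptor, are known as higher in female rats and were bright. Cyp2c11 (7.66, 7.57 and 7.70), Cyp2a2 (5.91, 5.73 and 5.73) and Cyp3a2 (4.63, 4.52 and 4.52) are known as higher in male rats. Cyp2c11 lay above the background level of 6.59, and Cyp2a2 and Cyp3a2 lay below it. As said above, a probe set of 1 Cyp2c gene can bind transcripts of its relatives, so the share of each is uncertain. The remaining liver genes of the list were added after the values were seen. Rup2 (mean 13.59), Sult2a2 (11.77, 12.29 and 11.94), Car3 (9.89, 10.25 and 9.27) and Cyp2c13 (mean 7.32) lay above the level. Obp3 (4.71), Hsd3b5 (4.58), Sult2a1 (3.97) and Sult1e1 (3.94) had means below it. Eif2s3y, a gene of the Y chromosome, had a mean of 3.06, at the floor of the array, and Uty, another, had 1 probe set with a mean of 9.03 and 1 with 5.84. The 4 probe sets of Xist, added after the values were seen, had means from 8.68 to 10.19. The labels give no sex, and none is assigned to the donors.

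Clock genes stood at moderate signal, with 12 of 17 above background, against 52.2% of all genes. Npas2 (8.36, 8.32 and 8.33), Clock (7.96, 7.72 and 7.75) and Bmal1 (7.22, 7.52 and 7.19), the activators of the clock, were above it. Nr1d1 (5.39, 5.46 and 5.38), Dbp (5.08, 5.26 and 5.13) and Per3 (4.83, 4.97 and 4.87), whose levels swing widely over the day, were not, so their values say nothing of a difference between donors. Nfil3, a repressor that alternates with Dbp, read 8.44, 9.57 and 8.61. Of 17 clock genes 14 were highest in donor 2, against 31.4% of all genes. The 5 not above background (Nr1d2, Nr1d1, Dbp, Per3 and Bhlhe41) are all among these 14, so the count rests in part on dim signals. Cell cycle genes were low, with 7 of 23 above background and Mki67, a marker of dividing cells, at 4.64, 4.34 and 4.51.

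Among the 100 brightest probe sets, 79 carried 1 gene symbol, 12 several and 9 none. Of the 9780 probe sets without a symbol 1933 lay above the background level and 55 had an SD of at least 0.5.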
